A study of Homo sapiens with 12 samples.

Results

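Histone genes were described in gastric cancer cells sorted for the surface protein CD133. The members were the rows whose gene symbol begins with HIST1H to HIST4H, H2AF, H3F or H1F, which gave 85 of the 34595 genes with values. Of these, 70 were clustered genes, written HIST1H to HIST4H (6 for the linker histone H1 and, for the core histones, 17 for H2A, 18 for H2B, 14 for H3 and 15 for H4). The other 15 were variant genes, written H2AF, H3F and H1F. RNA was measured on 12 Illumina HT-12 v3 BeadChips from 3 gastric cancer cell lines, KATO-III, SNU-216 and SNU-601. The lines were grown in RPMI1640 medium with calf serum, with no treatment named in the labels, and stained with an antibody to CD133. Flow cytometry collected the brightest cells of each line as the CD133+ fraction and the dimmest as the CD133- fraction, so cells of intermediate staining entered neither fraction, and each of the 6 populations was measured on 2 arrays. The labels give replicate numbers and do not say whether the 2 arrays of a population came from separate sorts, so p-values measure only the spread between these arrays, which may be technical.

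Histones are the proteins that DNA is wound on. Clustered, or replication-dependent, histone genes are transcribed together with the help of NPAT when DNA is copied in S phase. Their mRNAs end in a stem-loop that the protein SLBP binds, in place of the usual poly(A) tail. Variant genes such as H2AFZ and H3F3A are used throughout the cell cycle and make polyadenylated mRNAs. That need not hold for each gene counted here as a variant, such as H2AFX. The amplification kit used here primes from oligo(dT), so a clustered gene was read from its polyadenylated transcripts or from priming inside the message, and the part of this in the values below was not tested. Several clustered genes, HIST1H2AC, HIST1H2BD and HIST2H2BE among them, are known to make polyadenylated transcripts as well. Coding sequences of clustered genes of the same type are nearly identical, and pairs such as HIST2H2AA3 with HIST2H2AA4 and HIST2H4A with HIST2H4B are duplicated copies. Values of such copies may share signal and count as uncertain for the single gene.

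The promoters of 6 members that the results turn on are shown, those of clustered genes and that of the variant H2AFX. H2AFX does not stand for variants in general, since TATAAA was found in only 4 of 14 of them. Each line holds the 180 bases before the transcription start in the RefSeq table for GRCh38.p14, with matches to 3 motifs on either strand in capitals. The motifs were the TATA box, searched as TATAAA, the CCAAT box, which on the opposite strand reads ATTGG, and the octamer ATTTGCAT, for which the opposite strand was searched too. The octamer is the element bound by the factor Oct-1 in H2B promoters. HIST1H2BD lies at chr6:26157941-26158120 on the plus strand, HIST1H2BK at chr6:27146859-27147038 on the minus strand and HIST2H2BE at chr1:149886683-149886862 on the minus strand. HIST1H2AC lies at chr6:26123992-26124171 on the plus strand, HIST1H4H at chr6:26285535-26285714 on the minus strand and the variant H2AFX at chr11:119095466-119095645 on the minus strand.
HIST1H2BD: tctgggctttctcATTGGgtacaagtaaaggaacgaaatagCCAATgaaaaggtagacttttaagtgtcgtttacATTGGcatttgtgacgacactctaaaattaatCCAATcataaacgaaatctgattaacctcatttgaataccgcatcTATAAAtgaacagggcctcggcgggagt
HIST1H2BK: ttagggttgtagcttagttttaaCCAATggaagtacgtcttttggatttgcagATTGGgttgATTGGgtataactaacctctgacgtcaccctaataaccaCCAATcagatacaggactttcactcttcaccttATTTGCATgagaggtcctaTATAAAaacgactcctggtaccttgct
HIST2H2BE: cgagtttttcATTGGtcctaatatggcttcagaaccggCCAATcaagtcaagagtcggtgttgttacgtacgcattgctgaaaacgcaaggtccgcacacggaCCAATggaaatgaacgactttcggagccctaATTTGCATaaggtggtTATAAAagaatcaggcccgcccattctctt
HIST1H2AC: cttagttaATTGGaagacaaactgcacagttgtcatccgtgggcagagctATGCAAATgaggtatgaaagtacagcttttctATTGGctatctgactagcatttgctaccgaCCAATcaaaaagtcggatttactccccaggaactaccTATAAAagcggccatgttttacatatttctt
HIST1H4H: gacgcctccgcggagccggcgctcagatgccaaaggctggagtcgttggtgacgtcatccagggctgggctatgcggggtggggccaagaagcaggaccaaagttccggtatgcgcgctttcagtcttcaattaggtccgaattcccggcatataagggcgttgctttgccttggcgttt
H2AFX: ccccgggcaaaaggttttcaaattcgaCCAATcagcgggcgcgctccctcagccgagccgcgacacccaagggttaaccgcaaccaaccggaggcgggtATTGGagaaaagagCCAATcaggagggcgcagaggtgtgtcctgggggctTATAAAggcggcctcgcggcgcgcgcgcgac
In HIST1H2BK and HIST2H2BE the octamer begins 46 bases before the start and the TATAAA begins 27 and 30 bases before it. HIST1H2BD holds a TATAAA 28 bases before the start and no exact match to the octamer in this window. The H4 gene HIST1H4H held no exact match to any of the 3 motifs here, and H2AFX held a TATAAA 31 bases before its start and 3 matches to CCAAT. Only exact letters were searched, so near matches, such as the tataag in HIST1H4H, were not counted. Over the 250 bases before the start, 79 of the 85 members had a sequence in the table. TATAAA was found in 43 of 65 clustered genes (66.2%) and 4 of 14 variants (28.6%), against 11.1% of 27305 promoters of the table. The octamer was found in 14 of 18 H2B genes, 11 of 16 H2A genes, 1 of 12 H3 genes and 0 of 13 H4 genes, against 1.66% of all promoters. These are not counts of separate octamers. In 12 pairs of members the starts lie 194 to 248 bases apart on opposite strands, mostly an H2A with an H2B gene. The genes of a pair share these bases, so 1 match counts for both. The H3 gene with an octamer, HIST1H3D, is in such a pair with the H2B gene HIST1H2BF. CCAAT was found in all of the 6 H1, 16 H2A, 18 H2B and 12 H3 genes and in 3 of 13 H4 genes, against 33.0% of all promoters. A match is a description of the letters and not a measurement of binding.

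Intensities were deposited on a linear scale after quantile normalization and a background subtraction, and values under a floor of 32.7 were set to that floor before log2. A gene was tested where it exceeded the floor on at least 2 arrays, which held for 20147 genes and for 58 members, 48 clustered and 10 variant. A further 22 members never exceeded the floor and 5 exceeded it on 1 array. Those 22 were 17 clustered genes and 5 variants, namely the germ-line H1FNT and H1FOO and the H2AFB1, H2AFB2 and H2AFB3 genes. The arrays of the fractions did not overlap in 42 of the 58 tested members in KATO-III, 35 in SNU-216 and 28 in SNU-601, against 70.7%, 60.9% and 55.0% of all tested genes. All 10 tested variants and 25 of the 48 tested clustered genes exceeded the floor on all 12 arrays. PROM1, which encodes CD133, was higher in the CD133+ arrays of all 3 lines, by 1.10, 2.02 and 1.86 log2 in KATO-III, SNU-216 and SNU-601. Of 8 rows for epithelial genes, EPCAM, TACSTD1 (an older symbol of EPCAM, listed as a row of its own), KRT8, KRT18, KRT19 and CDH1 exceeded the floor on all 12 arrays, TFF1 on the 8 arrays of KATO-III and SNU-601, and CDX1 on none. In CD133+ cells, 1 of these rows was called higher and 2 lower in KATO-III, 1 higher and 2 lower in SNU-216, and 0 higher and 2 lower in SNU-601. In the same order of lines, their summed intensities were 57140.0 to 58668, 56147 to 58574 and 69863 to 70849 on CD133+ arrays and 64312 to 65735, 54906 to 55355 and 77211 to 79846 on CD133- arrays. TFF1, a secreted peptide of gastric mucosa, fell by 1.79 log2 in KATO-III (adjusted p = 3.68e-07) and 0.90 in SNU-601 (adjusted p = 0.000117), and CDH1, which encodes E-cadherin, changed by -0.70, 0.30 and -0.25 in KATO-III, SNU-216 and SNU-601 (adjusted p = 6.83e-05, 0.0109 and 0.0362). The part of these markers in the histone results was not tested.

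In KATO-III, many clustered histone mRNAs were lower in the CD133+ fraction, with H2A, H2B, H3 and H4 genes among them, while variants were called in both directions. Of the 48 tested clustered genes, 24 were called lower and 3 higher in CD133+ cells, where called means a Benjamini-Hochberg adjusted p under 0.05 from limma. Among all tested genes 39.3% were called, 18.7% higher and 20.6% lower. The median log2 change of the clustered genes was -0.56, from -2.47 to 1.13, against 0 over all tested genes. Lower calls were made for 8 of 12 tested H2A, 6 of 10 H2B, 4 of 12 H3, 5 of 10 H4 and 1 of 4 H1 genes. The H3 count holds HIST1H3D, which exceeded the floor only on the 2 KATO-III CD133- arrays, so its change is not read. The H1 call was HIST1H1D, a dim gene. It read 39.5 and 4.93 on the CD133+ arrays and 71.5 and 57.9 on the CD133- arrays, so 1 CD133+ array lay under the floor. Among the 25 clustered genes above the floor on all 12 arrays, 19 were called lower and 0 higher (20 and 0 at an unadjusted p under 0.05 from limma), with a median of -0.83.

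HIST1H4H, an H4 gene, had the largest fall in KATO-III. Its intensities were 237 and 248 on the CD133+ arrays and 1272 and 1417 on the CD133- arrays, a log2 change of -2.47 ± 0.13 (SE) or 5.54-fold lower (adjusted p = 2.11e-06). The fractions did not overlap, and both CD133- arrays of this line were the highest of all 12 for the gene. For HIST1H2AC, an H2A gene, the values were 401 and 427 on the CD133+ arrays and 1555 and 1782 on the CD133- arrays (log2 change -2.01 ± 0.11, adjusted p = 2.37e-06). HIST1H2AE, another H2A gene, gave 109 and 107 on the CD133+ arrays and 389 and 393 on the CD133- arrays (log2 change -1.86 ± 0.19, adjusted p = 8.97e-05). HIST1H2AC thus fell 4.02-fold and HIST1H2AE 3.62-fold, with the fractions apart. HIST1H2BK, the H2B gene of the highest mean log2 intensity, which is no measure of its transcript amount beside other genes, read 3579.6 and 3665 on the CD133+ arrays and 7535 and 7725 on the CD133- arrays (log2 change -1.07 ± 0.05, adjusted p = 1.91e-06). HIST1H2BD and HIST2H2BE, H2B genes singled out after their values were seen, fell by 1.64 and 1.57 log2 (adjusted p = 3.68e-07 and 1.84e-06). HIST1H2BD read 985 and 954 on the CD133+ arrays and 2983 and 3062 on the CD133- arrays, and HIST2H2BE read 875 and 881 on the CD133+ arrays and 2614 and 2582 on the CD133- arrays. In each of these 3 H2B genes both CD133- arrays stood above both CD133+ arrays, where the fractions did not overlap in 70.7% of all tested genes. HIST1H3F, the H3 gene of the highest mean log2 intensity, read 224 and 188 on the CD133+ arrays and 324 and 373 on the CD133- arrays (log2 change -0.76 ± 0.22, adjusted p = 0.0207). That call was lost when any 1 of the 4 KATO-III arrays was left out.

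The 3 clustered genes called higher in KATO-III CD133+ cells were dim. HIST1H3C, an H3 gene, read 102 and 93.3 on the CD133+ arrays and 39.5 and 50.3 on the CD133- arrays (log2 change 1.13 ± 0.24, adjusted p = 0.00557). HIST1H2BM, an H2B gene, read 86 and 58.5 on the CD133+ arrays and 43.6 and 28.6 on the CD133- arrays (log2 change 0.91 ± 0.30, adjusted p = 0.042). HIST1H1B, a linker histone gene, read 44.2 and 52.1 in CD133+ cells and lay under the floor on both CD133- arrays. Over the 3 lines it exceeded the floor on 3 arrays, all CD133+. It was thus tested only through the fraction in which it was high, and its change is counted but not read. The highest of these values was 102, and none of the 3 genes was above the floor on all 12 arrays. The HIST1H2BM call was lost when any SNU-216 array, any KATO-III array but CD133+ replicate 2 or either SNU-601 CD133- array was left out. Among the clustered genes named for the highest mean log2 intensity of their type, HIST1H1C (H1) and HIST1H4C (H4) were not called. HIST1H1C read 1853 and 2015 on the CD133+ arrays and 1915 and 1797 on the CD133- arrays (log2 change 0.06 ± 0.10, adjusted p = 0.734). HIST1H4C read 14430.1 and 15616 on the CD133+ arrays and 16587 and 16228 on the CD133- arrays (log2 change -0.13 ± 0.05, adjusted p = 0.0755), where the highest value in the whole table was 23394.

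Some genes from marker lists of other cell types differed between the fractions of KATO-III, a cultured cell line. The summed intensity of 5 fibroblast genes was 108 to 134 in CD133+ and 771 to 825 in CD133- cells, where LUM made up most of the CD133- sum and COL1A1 was called higher in CD133+ cells (0.84 log2), while COL3A1 and DCN never exceeded the floor and COL1A2 did on 1 array. For 4 leukocyte genes the sum was 827 to 870 against 1178 to 1244, nearly all from CD14, with PTPRC and CD3E never above the floor. The 3 endothelial genes never exceeded it. The part of other cells in the histone values was not tested, and in bulk samples fewer cells of a type and less RNA per cell cannot be told apart.

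**Figure D1:**
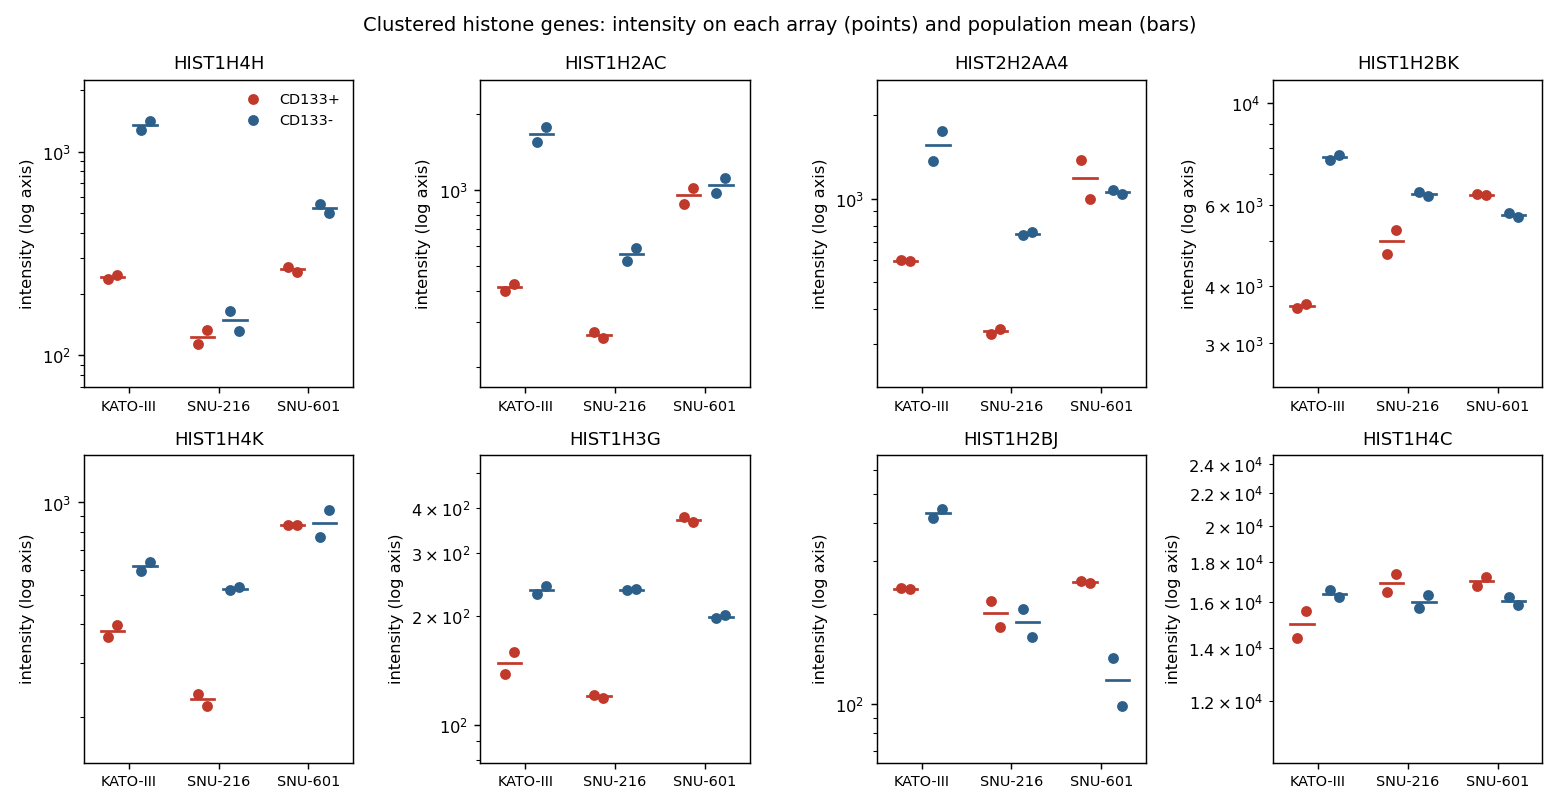
Intensity (log axis) of 8 clustered histone genes on each of the 12 arrays, with CD133+ arrays as red points, CD133- arrays as blue points and the mean of each population as a bar. In HIST1H4H the KATO-III CD133- arrays read 1272 and 1417 against 237 and 248 in CD133+ cells, whereas the HIST1H4C arrays of all 6 populations lay between 14430.1 and 17395.

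In SNU-216, clustered histone mRNA was again lower in CD133+ cells, in fewer genes. Of the 48 tested clustered genes, 13 were called lower and 0 higher, where 28.6% of all tested genes were called, 14.6% higher and 14.0% lower. At an unadjusted p under 0.05 from limma, 14 were lower and 0 higher. The median log2 change of the tested clustered genes was -0.23, from -1.20 to 0.19, against 0 over all tested genes. Lower calls covered 6 of 12 H2A, 3 of 10 H2B, 1 of 12 H3, 3 of 10 H4 and 0 of 4 H1 genes. All 13 were among the 25 clustered genes above the floor on all arrays, whose median was -0.68.

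HIST1H4K, an H4 gene, read 238 and 218 on the CD133+ arrays and 517 and 530.0 on the CD133- arrays in SNU-216 (log2 change -1.20 ± 0.10, adjusted p = 5.82e-05). HIST1H2AM, an H2A gene, read 72.7 and 62 on the CD133+ arrays and 175 and 133 on the CD133- arrays (log2 change -1.18 ± 0.19, adjusted p = 0.00166). HIST2H2AA4, also H2A, read 327 and 341 on the CD133+ arrays and 739 and 759 on the CD133- arrays (log2 change -1.16 ± 0.15, adjusted p = 0.000514). In these 3 genes the fall was 2.24-fold to 2.30-fold and the fractions were apart, as in 60.9% of all tested genes. HIST1H2AC read 274 and 261 on the CD133+ arrays and 526 and 593 on the CD133- arrays (log2 change -1.06 ± 0.11, adjusted p = 0.000146). HIST1H2BK fell less, with 4703 and 5304 on the CD133+ arrays and 6416 and 6270.0 on the CD133- arrays (log2 change -0.34 ± 0.05, adjusted p = 0.00161). HIST1H4H, the gene with the largest fall in KATO-III, read 113 and 132 on the CD133+ arrays and 165 and 132 on the CD133- arrays here (log2 change -0.27 ± 0.13, adjusted p = 0.168), and its fractions overlapped. The summed fibroblast genes read 62.2 to 83.5 in CD133+ and -1.09 to 15.5 in CD133- cells of this line, opposite to KATO-III. LUM made up most of the CD133+ sum, with 60.8 and 61.3 on the CD133+ arrays and -8.68 and -3.65 on the CD133- arrays. COL1A1 changed by -0.02 log2 and was not called. With a spread estimated from the 4 arrays of SNU-216 alone, 6 clustered genes were called lower.

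In SNU-601, few histone genes differed between the fractions. Of the 48 tested clustered genes, 3 were called higher and 1 lower in CD133+ cells, where 16.4% of all tested genes were called, 8.59% higher and 7.78% lower. The median of the clustered genes was 0.06, from -0.99 to 1.10, against 0 over all tested genes. HIST1H2BJ, an H2B gene, read 256 and 253 on the CD133+ arrays and 142 and 98.5 on the CD133- arrays (log2 change 1.10 ± 0.18, adjusted p = 0.00423). HIST1H4B, an H4 gene, read 72.6 and 101 on the CD133+ arrays and 18 and 52.5 on the CD133- arrays (log2 change 1.05 ± 0.23, adjusted p = 0.0163), and HIST1H3G, an H3 gene, read 376 and 365 on the CD133+ arrays and 198 and 201 on the CD133- arrays (log2 change 0.89 ± 0.10, adjusted p = 0.00071). HIST1H4H was the gene called lower, with 272 and 257 on the CD133+ arrays and 554 and 499 on the CD133- arrays (log2 change -0.99 ± 0.13, adjusted p = 0.00146). The fractions did not overlap in any of these 4 genes, which were picked for their change, where 55.0% of all tested genes did not overlap. In HIST1H4B 1 CD133- array lay under the floor, and the call of this gene was lost without CD133+ replicate 2 or CD133- replicate 1. Without CD133+ replicate 1 the count of higher calls was 5. With the 4 arrays of SNU-601 alone, 0 clustered genes were called in either direction.

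**Figure D2:**
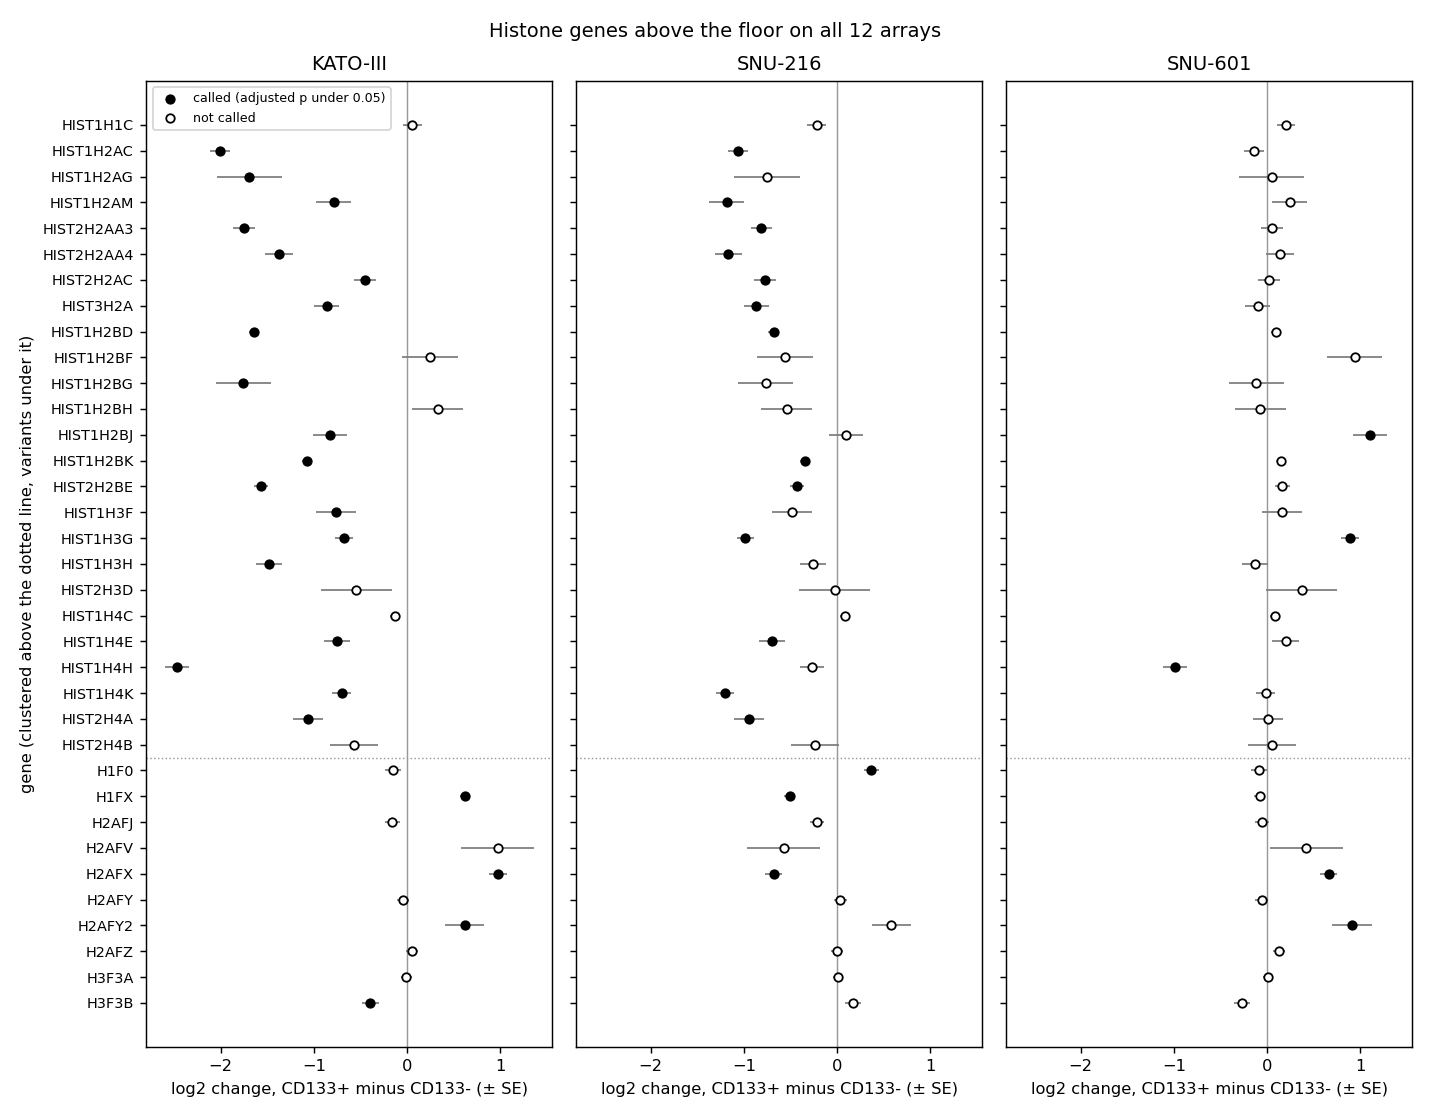
Log2 change of the 35 histone genes above the floor on all 12 arrays in CD133+ against CD133- cells of each line, with bars for the standard error and filled points for an adjusted p under 0.05. Clustered genes stand above the dotted line and variants under it, and most clustered genes lie to the left of 0 in KATO-III and SNU-216 and near 0 in SNU-601.

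All 13 clustered genes called lower in SNU-216 were also among the 24 called lower in KATO-III, and 5.51% of all tested genes were called lower in both lines. They were 6 H2A genes (HIST1H2AC, HIST1H2AM, HIST2H2AA3, HIST2H2AA4, HIST2H2AC and HIST3H2A), 3 H2B genes (HIST1H2BD, HIST1H2BK and HIST2H2BE), HIST1H3G for H3, and 3 H4 genes (HIST1H4E, HIST1H4K and HIST2H4A). The duplicated copies HIST2H2AA3 and HIST2H2AA4 are both counted and may share signal. HIST2H4B, the duplicated copy of HIST2H4A, was called in no line. No member was called in the same direction in all 3 lines, where 0.427% of tested genes were called lower and 0.630% higher throughout. HIST1H3G and HIST1H2BJ were called in opposite directions in 2 lines, as were 10.9% of tested genes. HIST1H3G changed by -0.67 and -0.98 log2 in KATO-III and SNU-216 and by 0.89 in SNU-601. HIST1H2BJ changed by -0.83 in KATO-III, with 244 and 240.4 on the CD133+ arrays and 416 and 444 on the CD133- arrays, and by 1.10 in SNU-601.

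The difference between lines was tested by the interaction of line and fraction. It was called in 24 of 48 clustered genes and 4 of 10 variants, against 44.4% of all tested genes. The interaction was called for HIST1H2BK (adjusted p = 2.17e-05), HIST1H3G (adjusted p = 3.04e-05), HIST1H4H (adjusted p = 7.37e-05) and HIST1H2AC (adjusted p = 7.49e-05). Their changes in KATO-III, SNU-216 and SNU-601 were -1.07, -0.34 and 0.15 for HIST1H2BK, and -2.01, -1.06 and -0.14 for HIST1H2AC.

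Over all 3 lines, with line as a block, 4 clustered genes were called lower and 0 higher, where 4.73% of all tested genes were called, 2.62% higher and 2.11% lower. HIST1H4H changed by -1.24 ± 0.29 log2 (adjusted p = 0.0353), HIST1H2AC by -1.07 ± 0.24 (adjusted p = 0.0334), HIST1H4K by -0.64 ± 0.16 (adjusted p = 0.0494) and HIST3H2A by -0.61 ± 0.14 (adjusted p = 0.0336). The pooled intensities of the fractions overlapped in all 4. The count was 0 when the 2 arrays of a population were averaged first or taken as a random block, 0 when any 1 KATO-III array was left out, 0 without SNU-216 CD133+ replicate 1 or CD133- replicate 1, 1 without replicate 2 of either SNU-216 fraction and 7 without SNU-601 CD133- replicate 1.

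**Figure D3:**
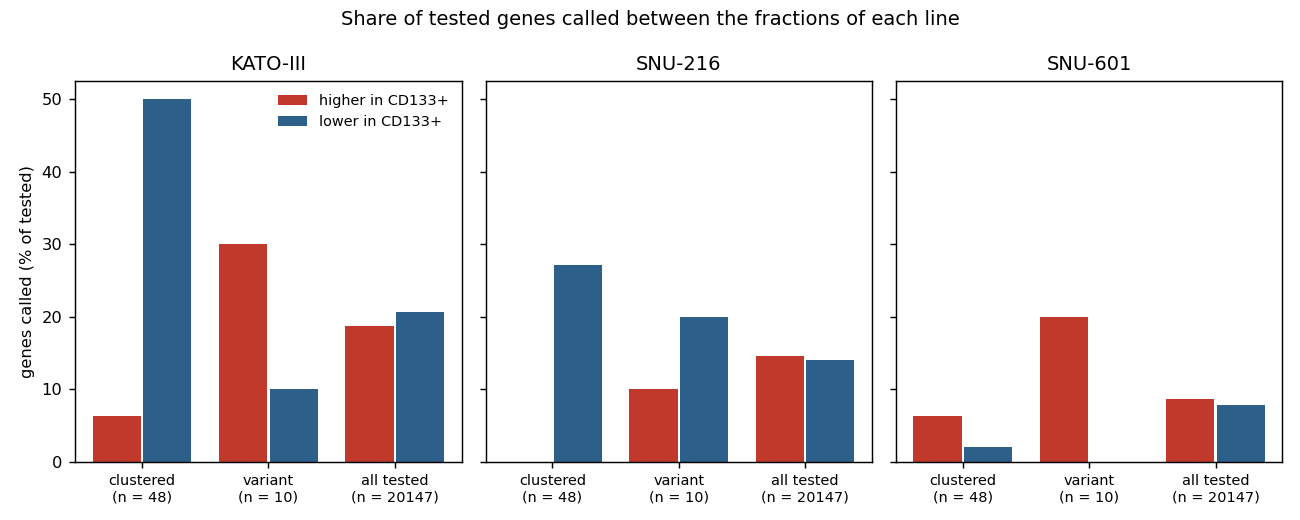
Share of tested genes called higher (red) or lower (blue) in CD133+ cells of each line, for the 48 clustered histones, the 10 variants and all 20147 tested genes. In KATO-III 24 of 48 clustered genes were called lower against 20.6% of all tested genes, and in SNU-601 1 of 48 against 7.78%.

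Variant histones moved gene by gene. In KATO-III, 3 of 10 tested variants were called higher and 1 lower (median 0.02). In SNU-216, 1 was called higher and 2 lower (median 0.00), and in SNU-601, 2 were called higher and 0 lower (median -0.02; 2 and 1 at an unadjusted p under 0.05 from limma). The background for each line is that given above.

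H2AFX encodes H2AX, the variant that is phosphorylated at DNA breaks. It read 5549.7 and 5470.2 on the CD133+ arrays and 2888 and 2725 on the CD133- arrays in KATO-III (log2 change 0.97 ± 0.09, adjusted p = 6.46e-05). In SNU-216 it read 2070.3 and 2069 on the CD133+ arrays and 3485 and 3161 on the CD133- arrays (log2 change -0.68 ± 0.09, adjusted p = 0.000816), and in SNU-601 1985 and 1692 on the CD133+ arrays and 1067 and 1260.0 on the CD133- arrays (log2 change 0.66 ± 0.09, adjusted p = 0.0023). The fractions were apart in all 3 lines, where 70.7%, 60.9% and 55.0% of tested genes were apart in KATO-III, SNU-216 and SNU-601 taken singly. H2AFX was higher in CD133+ cells in KATO-III and SNU-601 and lower in SNU-216 (interaction adjusted p = 5.48e-05). H1FX, the linker variant H1X, read 6692 and 7352 on the CD133+ arrays and 4399 and 4733 on the CD133- arrays in KATO-III (log2 change 0.62 ± 0.06, adjusted p = 4.35e-05). In SNU-216 the order was turned, with 2875 and 2742 on the CD133+ arrays and 4036 and 3955 on the CD133- arrays (log2 change -0.51 ± 0.06, adjusted p = 0.000248), and in SNU-601 the change was -0.08 ± 0.06 (adjusted p = 0.418). Both variants were therefore called in opposite directions in KATO-III and SNU-216.

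H1F0, the replacement linker histone H1.0 of cells that divide little, read 10469 and 10430.2 on the CD133+ arrays and 8048 and 8136 on the CD133- arrays in SNU-216 (log2 change 0.37 ± 0.08, adjusted p = 0.0104). The call was lost when any 1 of the 4 SNU-216 arrays was left out, and the changes in KATO-III and SNU-601 were -0.15 and -0.08 (adjusted p = 0.202 and 0.615). H3F3B encodes the replacement histone H3.3 and read 3865 and 3923 on the CD133+ arrays and 5053 and 5175 on the CD133- arrays in KATO-III (log2 change -0.39 ± 0.09, adjusted p = 0.00662), a call lost without CD133+ replicate 1. H3F3A, which encodes the same protein, was not called in any line, and its 12 arrays lay between 12908 and 14424. H2AFZ, which encodes H2A.Z, lay between 13507 and 16284 with a change of 0.13 ± 0.07 log2 in SNU-601 (adjusted p = 0.236), the largest of the 3 lines, and was not called either. Both H3F3A and H2AFZ lay high in the intensity range, where the highest value in the whole table was 23394. The part of this in their small changes was not tested. H2AFY, a macroH2A gene, changed by -0.06 to 0.04 log2 and H2AFJ by -0.21 to -0.05, and neither was called. H2AFV, the second H2A.Z gene, had changes of 0.97, -0.57 and 0.42 with a standard error of 0.39 in each line, and none was called.

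H2AFY2 encodes the other macroH2A protein and was dim, at 39 to 134 over its 12 arrays, where the floor was 32.7. In KATO-III it read 134 and 98.5 on the CD133+ arrays and 74.7 and 74.9 on the CD133- arrays. In SNU-216 it read 88.7 and 110.4 on the CD133+ arrays and 68.9 and 63.5 on the CD133- arrays, and in SNU-601 89.8 and 85 on the CD133+ arrays and 39 and 55.4 on the CD133- arrays. All 6 CD133+ arrays stood above all 6 CD133- arrays, as in 0.521% of tested genes, and no other member showed this. Over all lines the log2 change was 0.70 ± 0.13 (adjusted p = 0.0196), lost without KATO-III CD133+ replicate 1 and with the arrays of a population averaged first. Within lines it was called in KATO-III (0.62, adjusted p = 0.0444) and SNU-601 (0.91, adjusted p = 0.0192) and not in SNU-216 (0.58, adjusted p = 0.0712). Both calls were lost with a floor of 100, with no filter and with the arrays of the line alone. The KATO-III call was lost when any SNU-216 array, any KATO-III array but CD133+ replicate 2 or either SNU-601 CD133+ array was left out, and the SNU-601 call without any SNU-601 array but CD133- replicate 2. It was also the member with a signal-to-noise ratio above 1 (1.19), the difference of the fraction means over the sum of their SDs, where 0.558% of all genes passed 1 and 0.402% passed -1. The study's own list of CD133-related genes was chosen by this ratio on these arrays and holds H2AFY2, so that list is not independent evidence. No member passed -1.

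**Figure D4:**
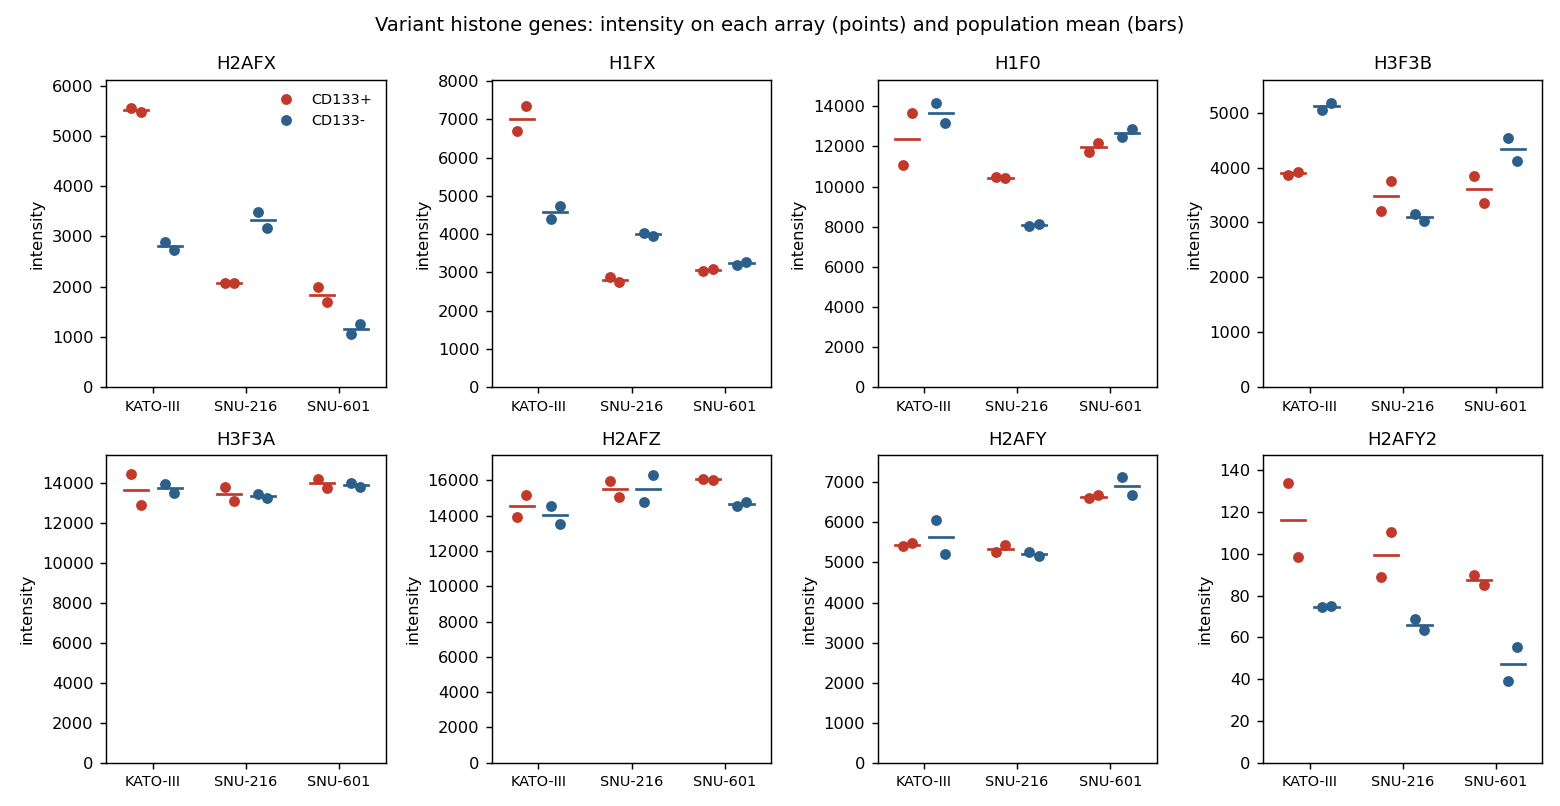
Intensity (linear axis from 0) of 8 variant histone genes on each of the 12 arrays, with CD133+ arrays as red points, CD133- arrays as blue points and population means as bars. H2AFX and H1FX turn direction between KATO-III and SNU-216. H3F3A and H2AFZ, which lie high in the intensity range, stay level, and all red points of H2AFY2 lie above all of its blue points.

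Histone levels were also compared between lines, with the mean of both fractions of a line. Of the tested members, 62.1% were called for KATO-III against SNU-216, 56.9% for KATO-III against SNU-601 and 34.5% for SNU-216 against SNU-601. The first 2 shares were near those of all tested genes, and the third was lower. The directions were uneven, with more members higher than lower in KATO-III and more lower than higher in SNU-216. KATO-III was higher than SNU-216 in 33 and lower in 3 of the 58 tested members, where 62.0% of all tested genes were called, 30.3% higher and 31.7% lower. The 33 were 28 clustered genes and 5 variants. Against SNU-601, KATO-III was higher in 24 and lower in 9 members, where 58.6% were called, 28.7% higher and 29.9% lower. SNU-216 was higher than SNU-601 in 4 and lower in 16 members, where 56.5% were called, 29.4% higher and 27.1% lower. The 3 comparisons share arrays. HIST3H2A stood 1.63 and 2.14 log2 higher in KATO-III than in SNU-216 and SNU-601, and HIST1H2AE at least 2.41 and 2.49 log2 higher, since arrays under the floor were raised to it. HIST1H2AE read 25.8 and 36.9 on the CD133+ arrays and 36.9 and 49.9 on the CD133- arrays in SNU-216 and 34.8 and 48.4 on the CD133+ arrays and 26.1 and 30.6 on the CD133- arrays in SNU-601, around the floor, against 109 and 107 on the CD133+ arrays and 389 and 393 on the CD133- arrays in KATO-III.

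In KATO-III, clustered histones were lower in the fraction in which genes of S phase were higher. Of 12 S phase genes, 9 were called higher and 1 lower in KATO-III CD133+ cells (median 0.40), 4 higher and 0 lower in SNU-216 (0.08) and 5 higher and 0 lower in SNU-601 (0.12). Over all tested genes, 18.7% were called higher and 20.6% lower in KATO-III, 14.6% and 14.0% in SNU-216, and 8.59% and 7.78% in SNU-601. At an unadjusted p under 0.05 from limma, 5 of the S phase genes were higher and 1 lower in SNU-216, and 6 were higher and 0 lower in SNU-601. PCNA, the sliding clamp of DNA polymerase, rose by 1.65 log2 in KATO-III (adjusted p = 0.000265), and TYMS, which makes thymidylate, by 0.84 (adjusted p = 1.76e-06). CCNE1, a cyclin of S phase entry, was the gene called lower (-0.26, adjusted p = 0.0143). Of 10 tested genes that transcribe histone genes or process their mRNA, 2 were called higher and 3 lower in KATO-III, 1 higher and 0 lower in SNU-216 (3 and 1 at an unadjusted p under 0.05 from limma), and 1 in each direction in SNU-601. SLBP was called higher in KATO-III, with 2859 and 2622 on the CD133+ arrays and 1961 and 1597 on the CD133- arrays (log2 change 0.63 ± 0.11, adjusted p = 0.00144), and in SNU-216 (0.39 ± 0.11, adjusted p = 0.0234), and changed by 0.02 in SNU-601 (adjusted p = 1). NPAT changed by -0.17 and 0.06 in KATO-III and SNU-216 (adjusted p = 0.117 and 0.665) and rose by 0.52 in SNU-601 (adjusted p = 0.00244).

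Neighbouring clustered genes that start back to back were compared after the values were seen. By the RefSeq annotation, 12 pairs of members started 194 to 248 bases apart on opposite strands, and in 5 pairs both were tested. HIST1H2BG and HIST1H2AE both fell in KATO-III, with changes of -1.76 ± 0.29 and -1.86 ± 0.19 log2. For HIST1H2BC and HIST1H2AC the changes were -0.05 ± 0.23 and -2.01 ± 0.11, and HIST1H2BC lay near the floor, at 29.9 and 43.1 on the CD133+ arrays and 34.3 and 44.4 on the CD133- arrays. HIST1H2BJ and HIST1H2AG changed by -0.83 and -1.69 in KATO-III and by 1.10 and 0.05 in SNU-601. HIST2H2BE and HIST2H2AC changed by -1.57 ± 0.08 and -0.45 ± 0.12 in KATO-III and by -0.43 ± 0.08 and -0.77 ± 0.12 in SNU-216, so the larger fall belonged to HIST2H2BE in KATO-III and to HIST2H2AC in SNU-216. In the fifth pair, HIST1H2BF changed by 0.25 in KATO-III (adjusted p = 0.591). Its neighbour HIST1H3D exceeded the floor only on the CD133- arrays of KATO-III, at 39.5 and 41.5, so it was tested only through the group in which it was high. Its change is not read, although its call is part of the KATO-III counts. Among tested clustered genes with a promoter sequence, 11 of 17 with the octamer and 13 of 28 without it were called lower in KATO-III, with medians of -0.78 and -0.62. In SNU-216, 5 of 17 and 8 of 28 were called lower, with medians of -0.34 and -0.13. HIST1H3D is among the 11, and genes that start back to back can share 1 octamer. No test was made of either difference.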

How the data were processed

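Fluorescence-activated cell sorting and Illumina TotalPrep amplification of the RNA preceded hybridisation. The authors deposited BeadStudio intensities, quantile-normalized and on a linear scale, with 1 row per gene symbol. A background had been subtracted, as 32.1% of values lay at or under 0, and neither that step nor the merging of probes is described in the sources used here. The description deposited with the series names a line SNU201 where the array labels have SNU-216, and the labels were followed. The array number limits the precision. Per array, 16320 to 16474 genes exceeded the floor.

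Values under 32.7, the 1st percentile of all values with its sign turned, were set to that floor, a choice made after the values were seen. After log2, limma 3.58.1 (R 4.3.3) was fitted with a mean-variance trend to all 20147 tested genes. Changes within lines, line pairs and the interaction used 6 population means (6 residual degrees of freedom), so the 2 arrays of a population set the spread. The test over all lines used line as a block (8 residual degrees of freedom). Alternatives were floors of 16 and 100, an offset of 100, other normalizations and filters, no trend, a replicate block, the arrays of the line alone, averaged or correlated arrays, and leaving out each array. The test was tried on simulated data.

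Members and gene lists were chosen with earlier results of these data known. Genes named were all tested variants, the 3 clustered genes with the largest called change in each direction per comparison, the clustered gene of highest mean log2 intensity of each type, members called alike in all lines or oppositely in 2, members past a signal-to-noise ratio of 1 or -1, and SLBP, NPAT, CENPA and PROM1. Others were named after their values were seen. Promoters were matched by current symbol or synonym, for 85 of 85 members, of which 79 had a sequence.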

Additional observations from a re-analysis of the deposited data

Results flagged for a closer look

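In 28 of the 58 tested members (48.3%) the difference between the fractions varied with the line, by the interaction of line and fraction in limma. That share was near the 44.4% of all tested genes, so the members did not stand out by it. For the H2A genes, the adjusted p was 7.49e-05 for HIST1H2AC, 0.000619 for HIST1H2AE, 0.048 for HIST1H2AG, 0.00547 for HIST1H2AM, 0.00014 for HIST2H2AA3, 0.00085 for HIST2H2AA4, 0.0123 for HIST2H2AC and 0.0127 for HIST3H2A. For the H2B genes it was 5.56e-06 for HIST1H2BD, 0.0446 for HIST1H2BF, 0.0283 for HIST1H2BG, 0.001 for HIST1H2BJ, 2.17e-05 for HIST1H2BK, 2.32e-05 for HIST2H2BE and 0.00467 for HIST2H2BF. For the H1 and H3 genes it was 0.0255 for HIST1H1B, 0.042 for HIST1H1D, 0.0487 for HIST1H3C, 3.04e-05 for HIST1H3G and 0.00111 for HIST1H3H, and for the H4 genes 0.00694 for HIST1H4E, 7.37e-05 for HIST1H4H, 0.000583 for HIST1H4K and 0.00791 for HIST2H4A. For the variants it was 0.0121 for H1F0, 3.6e-05 for H1FX, 5.48e-05 for H2AFX and 0.0117 for H3F3B. HIST1H1B, HIST1H3C and HIST1H2AE lay at or near the floor in SNU-216. HIST1H1B exceeded the floor only on CD133+ arrays, so its interaction is counted but not read. Over all tested genes, 44.4% had a called interaction.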

How the results depend on the processing

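Alternatives were computed for 36 called changes of the members picked by the naming rule, and not for the called changes of other members. Of these alternative values, 677 kept their side of the threshold, 111 lost it and none changed direction. In KATO-III, the count of clustered genes called higher was 0 with only genes above the floor on all arrays and with a floor of 100, and 1 with the arrays of the line alone. The median of clustered genes there was -0.83 in genes above the floor on all arrays, -0.85 with a floor of 100, 0 with no filter and -0.38 with an offset of 100, and the median of variants was 0.064 after median centring. In SNU-216, 6 clustered genes were called lower with the arrays of the line alone, and the median was -0.68 above the floor on all arrays, -0.45 with a floor of 100 and 0 with no filter. In SNU-601 the arrays of the line alone gave 0 calls of clustered genes in either direction and 0 variants called higher, a floor of 100 or no filter gave 1 variant called higher, and 1 variant was called lower above the floor on all arrays and with an offset of 100. Medians of 0 with no filter follow from the untested genes that sit at the floor.

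Over all lines, the clustered genes called lower numbered 9 above the floor on all arrays, 7 with a floor of 100 or an offset of 100, and 0 with no filter, with averaged arrays or with the population as a random block. Their median was -0.57 above the floor on all arrays, -0.52 with a floor of 100, -0.31 with a floor of 16 and -0.0012 with no filter. The variant called higher over all lines was lost (0) with averaged arrays, a floor of 100, no filter or a random block. Between KATO-III and SNU-216, 5 members were called lower after median centring.

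The replicate numbers were not taken as pairs in the main fit. Deviations of same-numbered arrays of the fractions correlated at 0.026, 0.013 and -0.0065 in KATO-III, SNU-216 and SNU-601. Each value rests on a single deviation per fraction, which also holds array noise. It cannot show whether same-numbered arrays came from the same sort. With the replicate block, the clustered genes called lower over all lines numbered 0 in place of 4, and 31 of the 36 called changes kept their call.

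Leaving out each array in turn gave the following ranges, in which the lone array of a population is assumed to vary like the others. In KATO-III, clustered genes called higher and lower ranged from 2 to 3 and from 20 to 25, with a median of -0.59 to -0.42, and variants from 2 to 4 and from 0 (without CD133+ replicate 1) to 2 (without CD133+ replicate 2), with a median of -0.018 to 0.083. In SNU-216, clustered genes called lower ranged from 13 to 16, with a median of -0.29 to -0.13 (without CD133- replicate 1), and variants called higher from 0 (without any SNU-216 array) to 2 (without either SNU-601 CD133- array) and lower from 2 to 3. In SNU-601, clustered genes called higher ranged from 2 to 5, and variants called higher from 1 (without either CD133+ array or CD133- replicate 1) to 3 (without CD133- replicate 2), with a median of -0.055 to 0.017. Over all lines, clustered genes called lower ranged from 0 to 7 and variants called higher from 0 to 1. Members with a signal-to-noise ratio under -1 ranged from 0 to 1, the latter without SNU-601 CD133- replicate 1.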

Other observations

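Histone chaperones and exchange factors, the proteins that carry histones to DNA and swap variants in, moved in both directions. Of 24 tested genes, 7 were called higher and 5 lower in KATO-III CD133+ cells, 5 higher and 9 lower in SNU-216, and 4 higher and 5 lower in SNU-601. Over all tested genes, 18.7% were called higher and 20.6% lower in KATO-III, 14.6% and 14.0% in SNU-216, and 8.59% and 7.78% in SNU-601. HAT1, which acetylates new H4, was called higher in all 3 lines, by 1.97, 0.41 and 0.38 log2 in KATO-III, SNU-216 and SNU-601. CHAF1B, a subunit of the chromatin assembly factor CAF-1, was also called higher in all 3, by 0.34, 0.28 and 0.43. VPS72, a subunit of the complex that exchanges H2A.Z, was called lower in all 3, with changes of -0.22, -0.29 and -0.30. Among all tested genes, 0.630% were called higher and 0.427% lower in all 3 lines. ASF1B, a chaperone of H3 and H4, changed by -0.83 in KATO-III (adjusted p = 7.37e-05) and 0.46 in SNU-601 (adjusted p = 0.00665). NASP, which holds soluble H3 and H4, changed by -0.52 in KATO-III and 0.48 in SNU-216. HAT1, CHAF1B, VPS72, ASF1B and NASP were picked from the list after their values were seen. CENPA, the H3 variant of centromeres, changed by 0.51, -0.35 and 1.02 log2 in the 3 lines (adjusted p = 0.00116, 0.0121 and 0.000225).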
